A study of Mus musculus with 6 samples.

Results

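The Ighv1 genes, also known as the J558 family, form the largest group of V genes of the mouse immunoglobulin heavy-chain (Igh) locus. Described here are the 53 Ighv1 genes that remain after 15 genes of the family were set aside by name, namely Ighv1-9, 1-11, 1-18, 1-26, 1-49, 1-50, 1-53, 1-55, 1-64, 1-67, 1-72, 1-80, 1-81, 1-82 and 1-87. A sequence was counted for a gene when that gene was the first V gene of its call. The 53 genes held 59592 of 228609 sequences and were 53 of 176 V genes seen. Gene numbers rise with distance from the D genes, and the 30 genes numbered up to 47 (the D-nearer genes, 26642 sequences) were compared with the 23 numbered above 47 (the D-farther genes, 32950 sequences).

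A B cell builds its heavy-chain gene by joining a D gene to a J gene and then a V gene to that DJ join. Bases are trimmed and added at each join, so many joins leave V and J in different reading frames. An out-of-frame join makes no heavy chain and is kept in a mature B cell only beside a productive join on the other allele, whereas a productive join has passed selection for a working protein. The out-of-frame joins of a V gene therefore show its recombination with less selection than its productive joins do. The CDR3 is the stretch across the joins and contacts antigen.

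VDJ-seq, which reads these joins from genomic DNA, was applied to B cells from the spleen of C57BL/6 mice at an age of 12 weeks, enriched by magnetic depletion of other cells. The DNA input was 500 ng, 1 µg, 2.5 µg or 5 µg in 4 libraries. A further pair, Q5_vent and Q5_Q5, differed in DNA polymerases, and its input is not stated in the sources used here. Each of the 6 groups has 1 library, with 8704 to 112320 sequences, and the labels do not say whether libraries came from separate animals, so spread between libraries may be technical only. The files hold joins and no other genes, so the cell type could not be checked against markers.

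In the RefSeq annotation of GRCm38.p6, the 53 genes lie on chromosome 12 between 114487136 and 116000321, with their start positions in the order of their numbers without exception. The annotation lists 42 of them as V segments and 11 as pseudogenes, of which 9 are D-nearer (810 sequences) and 2 D-farther (20 sequences). It names 92 Ighv1 genes in all. Another 25 of these were first in no call, 21 of them pseudogenes.

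Reading the germline V part from deposited sequences that match it fully showed which genes carry a stop codon in the V reading frame. Such a stop blocks a protein whatever the join. It was found in 14 of the 53 genes, 9 D-nearer (477 sequences) and 5 D-farther (993 sequences), and 2 D-nearer genes could not be read. Ighv1-16 was read only in part, with no base at 53 of 294 positions, so a stop there could be missed. The annotation and the sequence differ here: Ighv1-19-1, Ighv1-70, Ighv1-79 and Ighv1-83 are listed as V segments and carry a stop. A window around the stop, in capitals, is shown for the 5 genes that place it at different points of the V part, with base 1 being the first base of the V part.
Ighv1-83, bases 1 to 45: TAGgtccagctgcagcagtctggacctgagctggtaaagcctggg
Ighv1-79, bases 1 to 45: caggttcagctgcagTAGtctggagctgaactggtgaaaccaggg
Ighv1-13, bases 31 to 75: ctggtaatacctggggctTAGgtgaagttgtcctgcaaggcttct
Ighv1-70, bases 94 to 138: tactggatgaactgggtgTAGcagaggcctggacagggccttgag
Ighv1-25, bases 127 to 171: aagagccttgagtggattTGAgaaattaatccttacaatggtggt

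Among genes with at least 50 sequences, another pair has no stop codon but lacks the codon of a conserved framework residue. Each is shown beside the most similar of the members that have at least 200 sequences, no stop and at most 30% out of frame. Ighv1-16, with 8 sequences, also read TGT at the codon of the conserved tryptophan. Ighv1-23 differs from Ighv1-15 at 5 of 294 bases, among them G108T (base of Ighv1-15, position, base of Ighv1-23), which replaces the codon of the conserved tryptophan. Ighv1-62-3 differs from Ighv1-69 at 20 of 294 bases, among them T64A (base of Ighv1-69 first), which replaces the codon of the first conserved cysteine. The changed codon is in capitals.
Ighv1-15, bases 94 to 120: tatgaaatgcacTGGgtgaagcagaca
Ighv1-23, bases 94 to 120: tatgaaatgcacTGTgtgaagcagaca
Ighv1-69, bases 52 to 78: gtgaagctgtccTGCaaggcttctggc
Ighv1-62-3, bases 52 to 78: gtgaagctgtccAGCaaggcttctggc

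The length of the V part differed in 1 gene. Among the 45 genes with at least 50 sequences and a V part that could be read, 44 had a V part of 294 bases and Ighv1-62-2 had 302. The bases from the second conserved cysteine codon on are in capitals; the deposited CDR3 starts just after that codon.
Ighv1-19, bases 271 to 294: tctgcagtctattacTGTGCAAGA
Ighv1-75, bases 271 to 294: tctgcggtctatttcTGTGCAAGA
Ighv1-74, bases 271 to 294: tctgcggtctattacTGTGCAATA
Ighv1-62-2, bases 271 to 302: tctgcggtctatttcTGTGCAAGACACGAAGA

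Usage of the 53 genes was uneven on both sides of the split. Together they took 26.2% ± 0.403 of sequences (SD, n = 6 libraries; 25.6% to 26.8%), with 11.8% ± 0.212 from the D-nearer and 14.4% ± 0.297 from the D-farther genes. The median gene had a mean share of 0.139% on the D-nearer side and 0.478% on the D-farther side. Across the 53 genes, Spearman's rho between gene number and mean share was 0.231, a description over genes that share libraries. The order of the genes was close to the same in every library, with Spearman's rho of 0.979 to 0.994 over the 15 pairs of libraries.

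**Figure D1:**
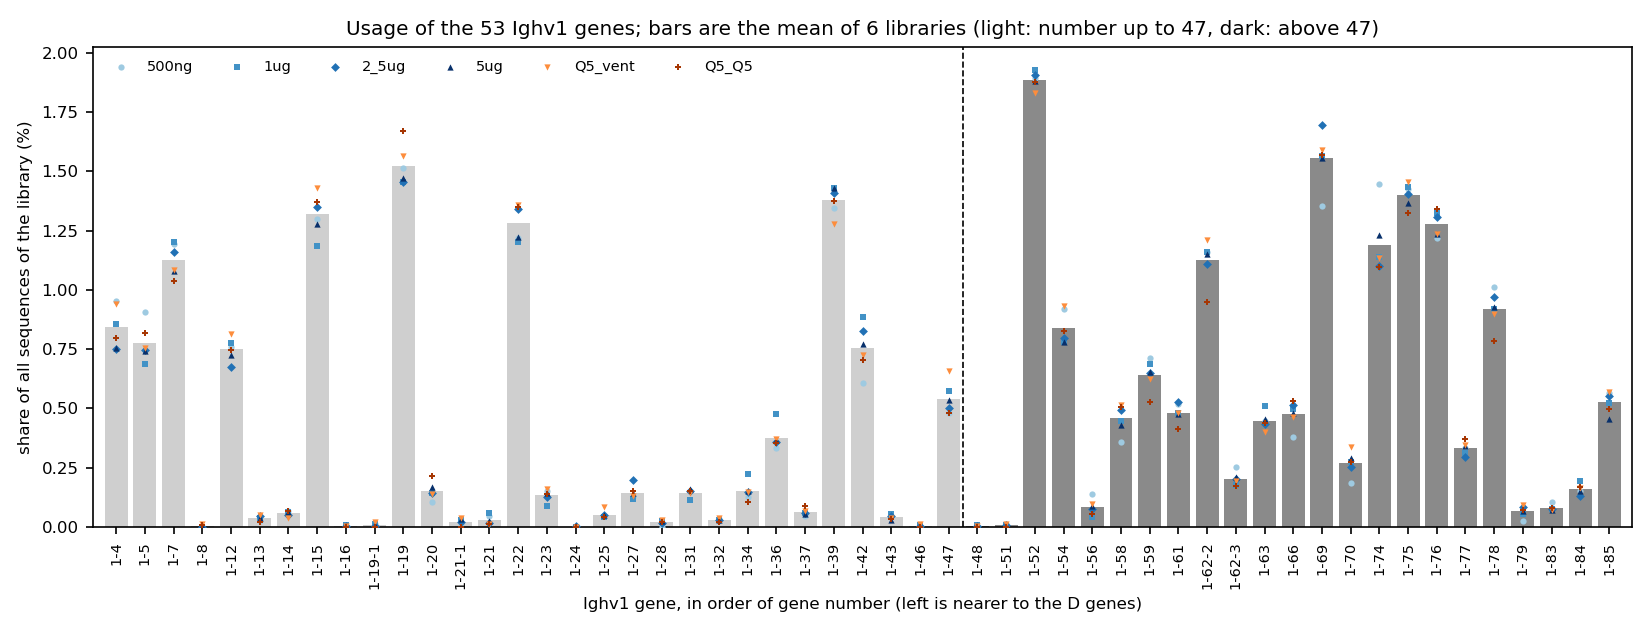
Share of all sequences of a library (percent) for each of the 53 Ighv1 genes, in order of gene number; bars are means of the 6 libraries, points are single libraries, and the dashed line lies between numbers 47 and 48. Counted by the first name in a call, Ighv1-52 stands highest at a mean of 1.89%, just right of the line. Low genes are more frequent left of the line.

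Counted by the first name in a call, the most used gene was Ighv1-52, the first D-farther gene with more than 10 sequences. By rising DNA input its share was 1.90%, 1.93%, 1.91% and 1.88%, with 1.83% in Q5_vent and 1.88% in Q5_Q5. Its SD over the 6 libraries was 0.03 percentage points. Ighv1-69 (1.56% ± 0.11), Ighv1-75 (1.40% ± 0.05), Ighv1-76 (1.28% ± 0.05), Ighv1-74 (1.19% ± 0.13), Ighv1-62-2 (1.12% ± 0.09), Ighv1-78 (0.92% ± 0.08) and Ighv1-54 (0.84% ± 0.07) followed on that side.

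On the D-nearer side Ighv1-19 led, with 1.52%, 1.45%, 1.46%, 1.47%, 1.56% and 1.67% in that order of libraries. Its highest value was in Q5_Q5. Ighv1-39 (1.38% ± 0.06), Ighv1-15 (1.32% ± 0.09), Ighv1-22 (1.28% ± 0.08), Ighv1-7 (1.13% ± 0.07), Ighv1-4 (0.84% ± 0.09), Ighv1-5 (0.78% ± 0.08) and Ighv1-42 (0.75% ± 0.10) came next. Among the 8 most used genes of each side, neighbours in this order differed by less than the larger SD of the pair for Ighv1-39 and Ighv1-15, Ighv1-15 and Ighv1-22, Ighv1-4 and Ighv1-5, Ighv1-5 and Ighv1-42, Ighv1-76 and Ighv1-74, and Ighv1-74 and Ighv1-62-2. At the low end, Ighv1-8 and Ighv1-24 had 5 sequences each, Ighv1-46 had 7 and Ighv1-16 had 8 over all libraries. Next to the split, Ighv1-47 had 1222 sequences, and Ighv1-48 and Ighv1-51 had 10 each.

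Calls bear on some of these counts. Between 7.30% and 10.6% of D-nearer and between 14.9% and 17.4% of D-farther sequences named several V genes. All 2594 calls of Ighv1-62-2 also named Ighv1-71, so the reads of that pair cannot be told apart. Several genes were named in 44.4% of Ighv1-52 and 52.4% of Ighv1-4 sequences. Of the 4315 Ighv1-52 sequences, 1910 also named Ighv1-61 and were counted for Ighv1-52. The rank of Ighv1-52 as most used thus depends on the order of names, since only 1.93% of Ighv1-69 sequences named several genes. Of the 2995 Ighv1-15 sequences, 579 also named Ighv1-23 and were counted for Ighv1-15.

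Out-of-frame joins were less frequent in these genes than in the other V families. They made up 16.6% ± 0.777 of the sequences of the 53 genes (n = 6 libraries; 15.5% to 17.6%), 15.3% ± 0.341 of the Ighv1 genes set aside and 30.7% ± 0.682 of all other families. Each library gave a lower share for the 53 genes than for the other families pooled. No test was run since the genes set aside were picked partly on usage and productive share. Single genes of other families with at least 200 sequences ran from 8.78% (Ighv14-2) to 83.8% (Ighv5-2), so a low share is not particular to the 53 genes. Of the 34 genes with at least 200 sequences, 25 had a share below that of all V sequences (22.3%) by a 99% Wilson interval, where 50.9% of the 106 V genes did so. Another 6 lay above it, where 42.5% of all V genes did. Either call was made for 31 of 34 members and for 93.4% of all V genes, so being apart from the mean is the usual state of a V gene at this depth.

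The D-nearer genes had the higher out-of-frame share in every library. The D-nearer and D-farther shares were 16.3% and 14.9% with 500 ng, 19.4% and 16.1% with 1 µg, 17.0% and 15.6% with 2.5 µg, and 18.2% and 15.6% with 5 µg. In Q5_vent they were 17.8% and 17.0%, and in Q5_Q5 16.9% and 15.7%. The difference was 1.78 ± 0.967 percentage points (SD, n = 6; 0.769 to 3.35), and the 95% interval for counting error excluded 0 in 3 libraries. An exact two-sided sign-flip permutation test over the 6 libraries gave p = 0.03125, the smallest that 64 sign patterns allow, and 0.135 after Benjamini-Hochberg adjustment over 13 readouts, so the difference did not pass.

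That difference moved with which genes were counted and how they were weighted. Without Ighv1-47, the last gene before the split, it was 0.20 points (exact permutation p = 0.688), with values by rising input of 0.212, 1.94, -0.165 and 0.885, then -1.43 in Q5_vent and -0.235 in Q5_Q5. The libraries then lay on both sides of 0. Without annotated pseudogenes, which leaves Ighv1-47 in, the difference was 0.28 points (exact permutation p = 0.656), and it was 0.16 when the split was set after number 58. It was larger, at 2.46, without the genes found here to carry a stop codon, and at 2.66 with all Ighv1 genes. When each gene with at least 200 sequences had equal weight it was 4.42 ± 0.552 (6 of 6 libraries positive; exact permutation, adjusted p = 0.0812).

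Productive joins mirrored this. They made up 78.2% ± 1.35 of D-nearer and 80.4% ± 0.955 of D-farther sequences, a difference of -2.27 ± 1.36 points that was negative in 6 of 6 libraries (exact permutation p = 0.03125, adjusted p = 0.135). It was -0.46 without Ighv1-47, -0.15 without annotated pseudogenes and -5.28 with equal weight per gene.

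**Figure D2:**
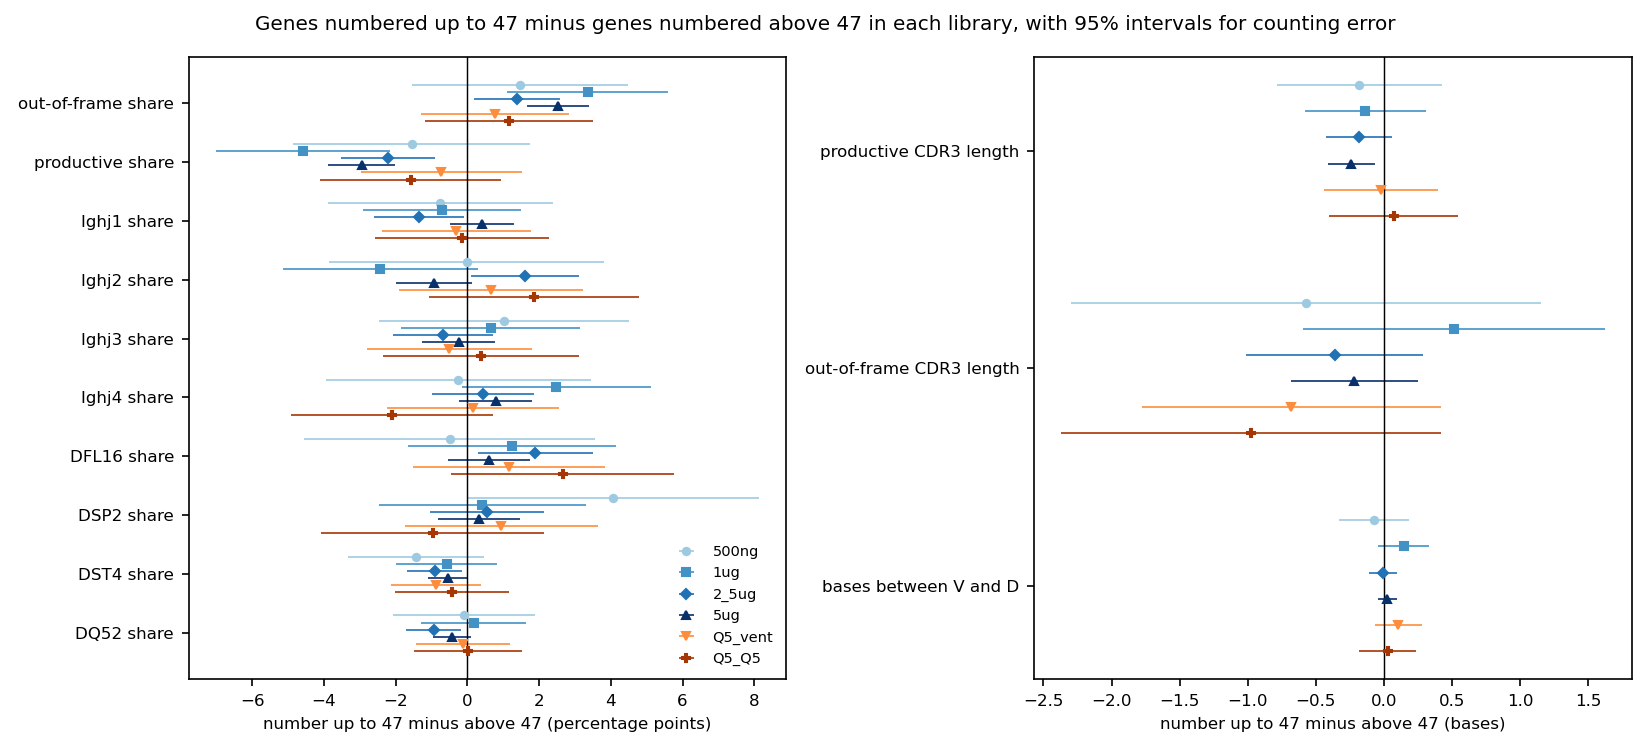
Value of the D-nearer genes (number up to 47) minus that of the D-farther genes in each of the 6 libraries, for shares in percentage points (left) and lengths in bases (right); bars are 95% intervals for counting error. All 6 points lie right of 0 for the out-of-frame share and left of it for the productive and DST4 shares, and most intervals cross 0.

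Most single genes fell into 2 ranges of out-of-frame share. Spearman's rho between gene number and out-of-frame share was -0.253 over the 34 genes with at least 200 sequences. Of the 36 genes with at least 50 sequences and no germline stop, 30 lay between 8.41% and 20.9%. Among those, 15 D-nearer genes had a median of 14.6% (8.43% to 20.9%) and 15 D-farther genes one of 12.2% (8.41% to 15.3%). The 9 genes with a stop lay between 63.5% and 76.6%. This grouping was drawn after the values were seen and has no test.

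**Figure D3:**
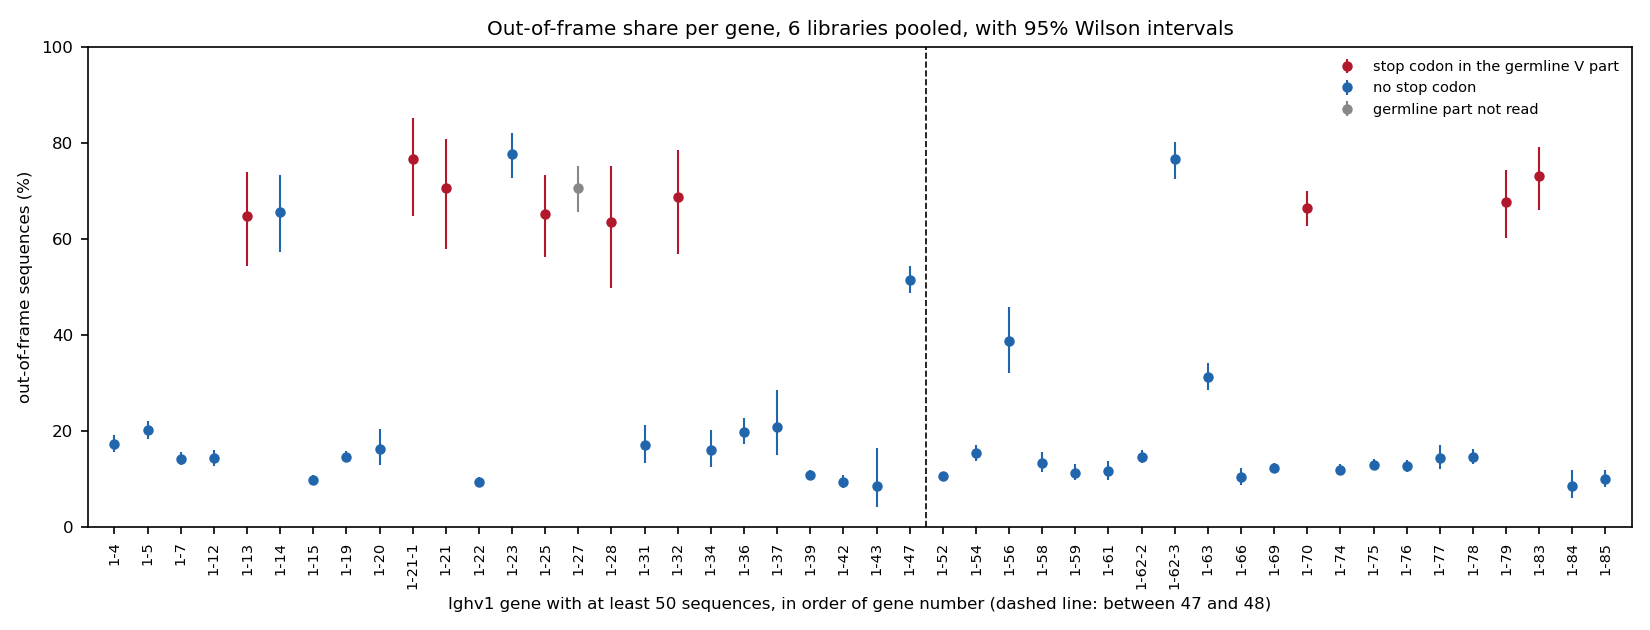
Out-of-frame share (percent) of each Ighv1 gene with at least 50 sequences, 6 libraries pooled, in order of gene number, with 95% Wilson intervals; colour marks a stop codon in the germline V part. Genes with a stop lie between 63.5% and 76.6%, and 30 of the 36 without one lie between 8.41% and 20.9%.

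The lowest shares on the D-nearer side belonged to Ighv1-22 (9.36%), Ighv1-42 (9.37%) and Ighv1-15 (9.78%). On the D-farther side they belonged to Ighv1-84 (8.41%), Ighv1-85 (9.95%) and Ighv1-66 (10.4%). Their joins were productive in 87.6% to 88.4% of sequences.

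The 6 genes without a germline stop but above 30% were Ighv1-14, Ighv1-23, Ighv1-47, Ighv1-56, Ighv1-62-3 and Ighv1-63. Ighv1-56 was out of frame in 38.7% of 186 sequences. A further 151 Ighv1-12 and 218 Ighv1-54 sequences also named Ighv1-56 and were counted for the first name. The share of Ighv1-56 thus depends on the order of names in a call. Ighv1-23, without the tryptophan codon, was out of frame in 77.7% of 310 sequences, against 9.78% for Ighv1-15. Both shares depend on the order of names in a call, since 579 of 2995 Ighv1-15 sequences also named Ighv1-23. Over the libraries the Ighv1-23 share ran from 76.2% to 80.6%. Ighv1-62-3, without the cysteine codon, was out of frame in 76.6% of 466 sequences, with 63.6% to 80.5% over the libraries, against 12.2% for Ighv1-69. Of the in-frame joins of Ighv1-23 that were not productive, 52 of 52 had a stop codon in the CDR3. The same held for 70 of 72 of Ighv1-62-3 and 25 of 25 of Ighv1-14. A CDR3 stop was also the usual finding in the 30 genes of the low range, with 1390 of 1551 such joins (89.6%).

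Ighv1-47 differed from both ranges. By rising input it was out of frame in 45.2%, 46.9%, 51.4% and 51.8% of its sequences. In Q5_vent the share was 56.2%, and in Q5_Q5 it was 36 of 72 sequences. All libraries were well above the 22.3% of all V sequences. With 629 out-of-frame sequences it had more than any other of the 53 genes, though it ranked 19 by share of all sequences. Of its in-frame joins 82.6% were productive, against 97.2% for Ighv1-22, and it had the shortest mean CDR3 of productive joins among the 30 genes with at least 200 of them, at 36.3 bases.

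Where the read covered a germline stop, in-frame joins were seldom called productive. Over the 14 genes together, 9 of 217 such joins were productive, against 149 of 256 in-frame joins whose aligned V part did not reach the stop. A label that counts stop codons in the read would fix this in advance, so the counts describe the label. Where the stop was not reached, a productive label does not show a working protein, since the germline stop would still block it. For Ighv1-70 the counts were 0 of 105 and 63 of 109. Ighv1-83, whose stop is its first codon, went the other way, with 8 of 10 productive where the stop was covered and 23 of 36 where it was not. The remaining 1 of the 9 was Ighv1-79.

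Ighv1-27, the only annotated pseudogene with at least 200 sequences, had 351, and 70.7% were out of frame. None of them fully matched the germline sequence used for the call. Their median V identity was 0.933 and the highest 0.956. Single-base changes were counted only in sequences without a gap. A251G, T265G and T275C (base of the germline sequence used for the call, position, sequenced base) were each in all 204 of these. The other 147 of the 351 held a gap and were not scored. In Ighv1-63, 82 sequences had a V identity under 0.97, of which 80 held a gap. These 82 were out of frame in 56.1% and productive in 1.22%, against 29.1% and 65.9% of the other 940.

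The J partners of the groups were close on average over the libraries. The Ighj1 share was 17.5% ± 0.660 in D-nearer genes, a difference of -0.48 ± 0.602 points from the D-farther genes. The D-nearer and D-farther shares were, for Ighj2, 31.3% ± 1.57 and 31.2% ± 1.37, for Ighj3 24.1% ± 0.847 and 24.0% ± 1.07, and for Ighj4 27.1% ± 1.23 and 26.8% ± 0.925. No mean difference over the 6 libraries exceeded 0.478 points in size, and the adjusted p of the exact permutation test ran from 0.232 to 0.875. Single libraries differed by more and in both directions, such as -2.43 points for Ighj2 and 2.48 for Ighj4 with 1 µg. The SD of the difference was 1.62 for Ighj2 and 1.49 for Ighj4. With 2.5 µg the interval for counting error excluded 0 for Ighj1 (-1.35) and Ighj2 (1.60). Over the 34 genes with at least 200 sequences, Ighj1 ran from 13.2% (Ighv1-74) to 21.7% (Ighv1-47) and Ighj4 from 19.7% (Ighv1-27) to 44.2% (Ighv1-36).

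The high Ighj4 share of Ighv1-36 came with 1 clone, a set of sequences that share V gene, J gene and CDR3. Named after its values were seen, the clone held 188 of 848 Ighv1-36 sequences, from 20.8% to 27.6% of the gene in each library. Without it Ighj4 took 28.3%, against 26.4% in the other 52 genes. The out-of-frame share of Ighv1-36 was 19.8% with the clone and 25.5% without it. The second value lies above the low range of out-of-frame shares, which ended at 20.9%. The CDR3 of the clone is shown because the same bases were read in all 6 libraries.
Ighv1-36 clone, CDR3: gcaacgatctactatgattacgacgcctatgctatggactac
It was the only clone of the 53 genes in all 6 libraries. Of 58414 clones, 346 were in at least 2 libraries, 0.607% of D-nearer and 0.580% of D-farther clones, and 98.8% were seen once.

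Among D families, the largest differences were in DFL16 and DSP2, which together supply most joins, and in DST4. DFL16 took 41.4% ± 0.761 of D-nearer and 40.2% ± 0.505 of D-farther sequences and was higher in D-nearer genes in 5 of 6 libraries (exact permutation, adjusted p = 0.203). DSP2 took 41.6% ± 1.21 and 40.7% ± 0.701 (adjusted p = 0.361 by the same exact test). DST4 was lower in D-nearer genes in 6 of 6 libraries, at 5.71% ± 0.602 against 6.50% ± 0.313, a difference of -0.80 ± 0.361 points (exact permutation p = 0.03125, adjusted p = 0.135). DQ52, the D gene closest to J, took 6.01% ± 0.455 and 6.25% ± 0.291. None of the 13 readouts passed an adjusted p of 0.05, and 3 had an unadjusted exact permutation p of 0.03125. With 6 libraries an adjusted value under 0.05 would need at least 9 of the 13 at that smallest p, so missing it says little about any single readout.

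CDR3 length of productive joins was 38.1 ± 0.148 bases in D-nearer and 38.2 ± 0.051 in D-farther genes, a difference of -0.113 ± 0.117 bases (exact permutation, adjusted p = 0.232). The sign turned with 1 gene: without Ighv1-62-2 the difference was 0.314 bases. Out-of-frame joins had 38.1 ± 0.262 and 38.5 ± 0.475 bases, a difference of -0.38 ± 0.512 (exact permutation, adjusted p = 0.232). It was 0.024 without Ighv1-62-2, -1.03 without Ighv1-4, and -2.11 with all Ighv1 genes. With V alignments of at least 150 bases it was -0.75, negative in 6 of 6 libraries (exact permutation p = 0.03125, adjusted p = 0.102). Bases between V and D numbered 4.60 ± 0.048 and 4.56 ± 0.071.

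Ighv1-62-2, with the longer V end printed above, had the longest CDR3 of the 30 genes with at least 200 productive sequences. Its mean by rising input was 43.2, 43.3, 42.5 and 43.5 bases, with 43.2 in Q5_vent and 42.5 in Q5_Q5. The other D-farther genes, pooled within each library, had means of 37.7 to 37.9, so these library ranges did not overlap. Single genes varied more. Those with at least 200 productive sequences had means over all libraries from 36.9 (Ighv1-74) to 38.4 (Ighv1-58). The difference between Ighv1-62-2 and the pooled genes was 5.26 ± 0.515 bases (n = 6), less than the 8 extra germline bases. The gene was picked for this length, so no test is given.

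Ighv1-62-2 also had the fewest bases between V and D (3.95, against a median of 4.61 over 34 genes) and the most joins without a D call (8.02%, against a median of 4.72%). In the CDR3 of its largest clone, seen in 5 libraries, the first 14 bases match the germline end and are in capitals.
Ighv1-62-2 clone, CDR3: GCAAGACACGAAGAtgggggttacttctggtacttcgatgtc

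**Figure D4:**
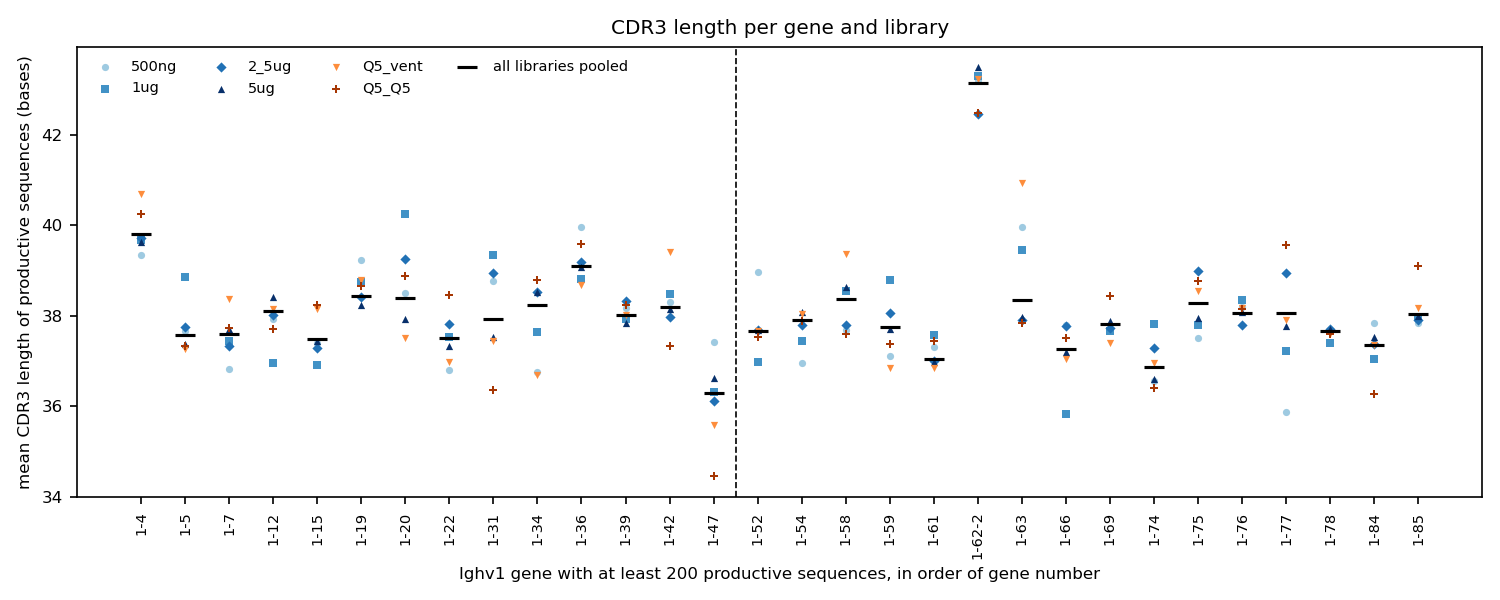
Mean CDR3 length (bases) of productive joins for each Ighv1 gene with at least 200 of them, in order of gene number; points are libraries and black bars the pooled mean. Ighv1-62-2 stands apart at 42.5 to 43.5 bases, and Ighv1-47 is lowest at a pooled 36.3.

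Ighv1-4 had the longest out-of-frame CDR3, at 47.6 bases against a median of 37.9 over 34 genes. Its 942 calls naming several genes had a median V alignment of 44 bases and an out-of-frame CDR3 of 50.4, and its 857 single-gene calls had 217 and 44.0. Among its sequences with at least 150 aligned V bases the out-of-frame CDR3 was 37.8 bases and the productive one 38.0. The length of Ighv1-4 joins thus moved with how much of the V gene was aligned.

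Usage of the members was compared across DNA input and polymerases by the ratio of shares, with 1 library each and hence no replicate check. Between 5 µg and 500 ng, 0 of 35 testable members changed by at least 1.5-fold with a 95% interval excluding 1, where 0.935% of all 107 V genes did. Without the fold minimum, the interval of Ighv1-4 excluded 1 (0.753% against 0.954%, ratio 0.790, interval 0.631 to 0.989), where 3.74% of all V genes did. Between Q5_Q5 and Q5_vent, 0 of 27 members passed, where 0% of 84 V genes did. Without the fold minimum, Ighv1-47 (ratio 0.729, interval 0.547 to 0.973) and Ighv1-62-2 (ratio 0.786, interval 0.639 to 0.966) had an interval excluding 1, where 3.57% of V genes did. In out-of-frame sequences between 5 µg and 500 ng, 1 of 22 members passed, Ighv1-74 (170 and 24 sequences, ratio 0.558, interval 0.365 to 0.854), where 3.66% of 82 V genes did, or 4.88% without the fold minimum. Between Q5_Q5 and Q5_vent the only testable member in out-of-frame sequences was Ighv1-47 (36 and 72 sequences, ratio 0.670, interval 0.450 to 0.996). It passed only without the fold minimum, as did 14.3% of 21 V genes, against 4.76% with it. A gene with 0 sequences could still have a share of as much as 0.0345% in the 500 ng library, or 0.00267% with 5 µg (3 counts over the total). All intervals cover counting error only.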

How the data were processed

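The deposited files hold 1 row per deduplicated sequence, a file per library. The mm10 build, Bowtie2 (2.3.2) and Trim Galore (0.4.4) appear in the submitters' processing notes. For V, D and J calling, the tool is not given in the sources. Per the file headers, V identity is a fraction of matching bases. Lengths in bases and yes or no flags were also read from the deposited columns.

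Each sequence counted once, for the V gene named first in its call (alleles merged), and D families followed the first D call. Germline V parts were rebuilt from sequences with a V identity of 1 and no gap. Coordinates and gene types came from RefSeq (GRCm38.p6), in which all 53 genes matched. D-nearer minus D-farther values were taken within each library and tested over the 6 libraries with an exact sign-flip permutation test and Benjamini-Hochberg adjustment over 13 readouts. Out-of-frame calls and ratios of shares were run on every V gene, with Wilson and Katz intervals; with 1 library per group no p-value was computed between groups. The tests were tested on simulated data with known differences.

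The genes and lists were chosen with earlier results of these data known. Named genes are, on each side of the split, the 8 most used, the 2 nearest it with at least 100 sequences, the 3 highest and 3 lowest out-of-frame shares among genes with at least 200 sequences and the highest share of several-gene calls, plus every annotated pseudogene with at least 200 sequences and genes under 10 sequences. Ighv1-14, Ighv1-19-1, Ighv1-36, Ighv1-56, Ighv1-79, Ighv1-83, Ighv1-13, Ighv1-25, Ighv1-48 and Ighv1-51 were named after their values were seen. Alternatives were other splits, gene sets, weights, clone definitions, call filters and minimum counts. Scripts ran in Python 3.11.15 with SciPy 1.17.1, NumPy 2.4.6 and pandas 2.3.3.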

Additional observations from a re-analysis of the deposited data

How the results depend on the processing

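No paired analysis was possible because each group has 1 library and the labels give no replicate numbers that could pair groups; the D-nearer and D-farther values themselves were compared within libraries. None of the 13 differences between D-nearer and D-farther genes passed an adjusted p of 0.05 in any alternative run, which at this number of libraries says nothing about stability. With 5 libraries the exact test cannot go below 0.0625. Leaving out Ighv1-47, Ighv1-62-2, Ighv1-4 or Ighv1-36, genes with a germline stop, genes above 30% out of frame, or V alignments under 150 bases, and comparing with other families, were chosen after seeing the data.

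Signs turned in 35 of the cases run with all 6 libraries, and in 5 with a library left out; the cause was not tested. With all Ighv1 genes, the difference was 0.28 points for Ighj1, -1.58 for Ighj2, -0.41 for Ighj4 and -0.42 for DFL16, and -0.056 bases between V and D. With single-gene calls, which leave out every Ighv1-62-2 sequence, it was -0.24 for Ighj4 and 0.029 for DQ52. In bases it was 0.172 for productive CDR3 and -0.026 between V and D under that filter. With equal weights per gene, it was -0.40 for Ighj2, -0.33 for Ighj3 and 0.050 bases for productive CDR3. Out-of-frame sequences gave -1.55 for Ighj2, -0.80 for DFL16, 0.0076 for DQ52 and -0.073 bases between V and D. Productive sequences gave -0.51 for Ighj3. Without Ighv1-62-2, it was -0.14 for Ighj2, 0.314 bases for productive CDR3, 0.024 for out-of-frame CDR3 and -0.013 between V and D. Without Ighv1-36, it was -0.30 for Ighj4. Alignments of at least 150 bases gave -0.042 for Ighj2, -0.059 for Ighj4 and -0.0044 bases between V and D. Counting clones once gave -0.22 for Ighj4, and counting deposited clonotypes once gave -0.52 for Ighj3 and 0.048 bases for productive CDR3. Ighj3 was -0.030 without annotated pseudogenes, -0.12 without genes above 30%, -0.094 without the most used gene of each side and -0.35 with the split after 58. That split gave 0.017 for the productive share, leaving out numbers 40 to 55 gave -0.035 for the out-of-frame share, and leaving out unclear primer tags gave -0.027 for Ighj2.

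Without 1 library at a time, the differences ran from 1.46 to 1.98 for the out-of-frame share, -2.58 to -1.81 for the productive share, -0.65 to -0.30 for Ighj1, -0.23 to 0.63 for Ighj2, -0.080 to 0.26 for Ighj3, -0.19 to 0.73 for Ighj4, 0.88 to 1.51 for DFL16, 0.25 to 1.26 for DSP2, -0.87 to -0.67 for DST4 and -0.32 to -0.096 for DQ52. In bases they ran from -0.15 to -0.088 for productive CDR3, -0.56 to -0.26 for out-of-frame CDR3 and 0.017 to 0.060 between V and D. Signs turned for Ighj3 without 500 ng (-0.080) or 1 µg (-0.0058), for Ighj4 without 1 µg (-0.19), and for Ighj2 without 2.5 µg (-0.18) or Q5_Q5 (-0.23). The members apart from all V sequences in out-of-frame share numbered 27 to 31, with 27 of 28 testable without the 5 µg library.

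For 5 µg over 500 ng, 1 of 35 members passed without the fold minimum, where 3.74% of 107 V genes did. In out-of-frame sequences 1 of 22 members passed with the fold minimum, where 3.66% of 82 V genes did. For Q5_Q5 over Q5_vent, 2 of 27 members passed without the fold minimum, where 3.57% of 84 V genes did. Depth limits the 500 ng library most.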
